A study of Mus musculus with 3 samples.

Results

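A set of 10 genes of the core pluripotency circuit of mouse embryonic stem (ES) cells were followed through DNA methylation maps of ES cells: wild type, Dnmt3a KO and Dnmt TKO. The genes, taken by name as known members of the circuit, were Pou5f1, Nanog, Sox2, Klf4, Esrrb, Zfp42, Tdgf1, Dppa3, Prdm14 and Lin28a, 10 of 22238 protein-coding genes of the GENCODE vM1 annotation (mm9). The maps come from reduced-representation bisulfite sequencing (RRBS), in which DNA is cut with MspI at CCGG sites, sized, treated with bisulfite and sequenced, so that for each covered CpG the share of reads that kept a cytosine gives the methylation level. There was 1 library per genotype. Wild-type cells, derived from blastocysts of a mixed 129-C57Bl/6 background, were grown on feeder cells or gelatine. In the Dnmt3a KO line, of the same mixed background, both isoforms of the de novo methyltransferase DNMT3A were removed with CRISPR-Cas9 and guides within the gene. The Dnmt TKO line lacks DNMT1, DNMT3A and DNMT3B and is of strain J1. Both mutants were grown on gelatine. All cells were kept in medium with serum and LIF, and no further treatment was given. Genotype, line, culture and (for Dnmt TKO) strain cannot be told apart with 1 library each, and no value below has a replicate check. As only DNA methylation was measured, the cell type label could not be set against marker expression. For each gene, CpGs from 5000 bp upstream of the start to the end of the gene record were taken where the coverage was over 10 reads, which gave 574 of 970329 CpGs in wild type, 423 of 814188 in Dnmt3a KO and 223 of 431923 in Dnmt TKO. The median coverage of these CpGs was 28.5, 18 and 14 reads in the same order. Bisulfite does not tell 5-methylcytosine from 5-hydroxymethylcytosine, so both count as methylation.

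In ES cells, a small set of transcription factors centred on OCT4 (the product of Pou5f1), SOX2 and NANOG binds its own genes and those of partner factors and so keeps the cells undifferentiated. Promoters of these genes are free of methylation while the genes are active, and several of them gain DNA methylation when cells leave pluripotency. DNMT3A and DNMT3B place new methyl groups on CpGs, DNMT1 copies existing ones at replication, and regulatory elements outside promoters often carry intermediate levels because methylation is added and removed there continually.

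The genes differed in how much of them the assay reached. In the promoter, taken as the 2000 bp on either side of the start of the gene record, wild type had 148 CpGs in Klf4, 73 in Prdm14, 67 in Sox2, 19 in Lin28a, 16 each in Zfp42 and Tdgf1 and 7 each in Pou5f1 and Esrrb. Dppa3 had no promoter CpG in any library, and its 7 CpGs in the gene body were covered in wild type only. Nanog had none in the promoter of wild type or Dnmt TKO and 1 in Dnmt3a KO, and none in the body of any library, so neither gene could be compared between genotypes. The Nanog promoter holds 63 CpGs but only 2 CCGG sites, while the Sox2 and Klf4 promoters hold 32 CCGG sites each. In Dnmt TKO, the promoters of Pou5f1 and Esrrb were without a covered CpG as well. Levels below are means over the CpGs of a region, with 95% intervals combined from the Wilson interval of each CpG. These intervals cover counting error only, and are too narrow where reads are PCR copies or hold several CpGs. Differences are means over CpGs covered in both libraries, given in percentage points as the mutant minus wild type.

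**Figure D1:**
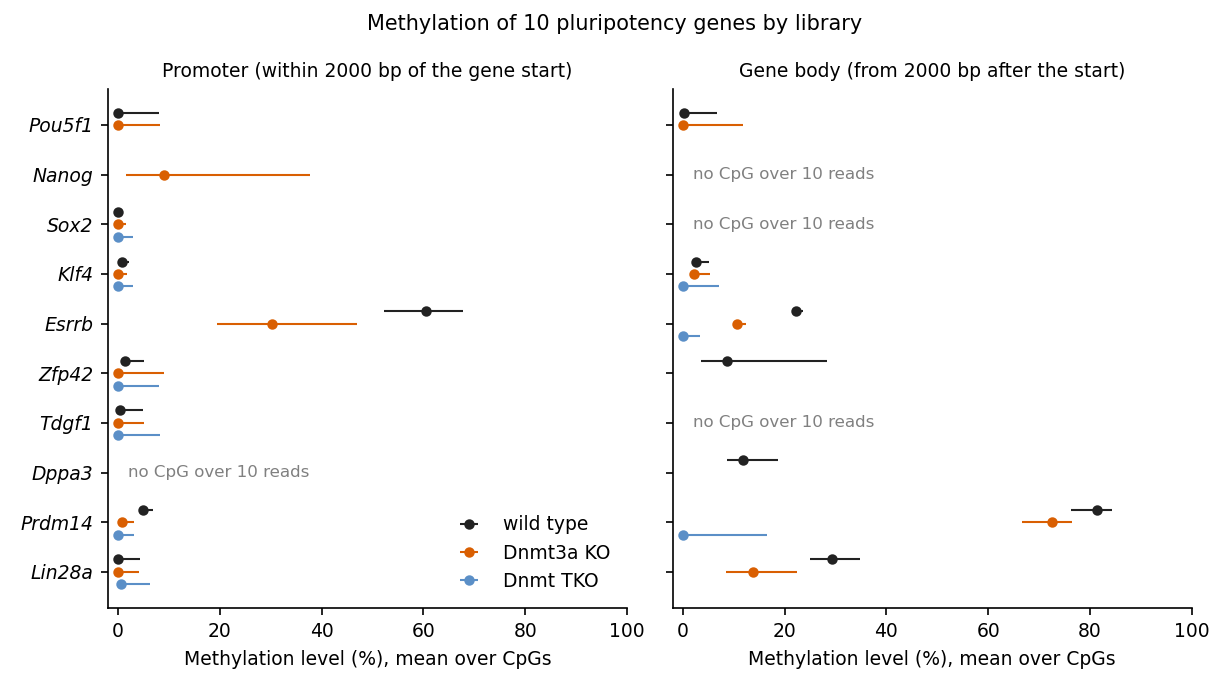
Mean methylation of the CpGs in the promoter (left) and gene body (right) of each gene, in percent, with 95% intervals from read counts, in wild type (black), Dnmt3a KO (orange) and Dnmt TKO (blue). Each mean is over the CpGs covered in that library, which differ between libraries. Of the promoters with at least 5 CpGs, only that of Esrrb lay above 10% in wild type, and the Prdm14 body was the most methylated region, at 81.4% in wild type and 72.6% in Dnmt3a KO.

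Pou5f1 and Sox2, which encode the DNA-binding partners at the centre of the circuit, were unmethylated around their starts in each library that covered them. At the Pou5f1 promoter (chr17, gene at 35642982 to 35647721, plus strand), 0 of 101 reads were methylated in wild type and 0 of 93 in Dnmt3a KO, which allows levels of up to 2.97% and 3.23%. The difference over 4 shared CpGs was 0 percentage points, with an interval of -10.7 to 9.47. Farther into the gene, the covered CpGs from position 2013 on (positions are counted in bp from the gene start, negative upstream) gave 1 methylated read of 200 in wild type and 0 of 49 in Dnmt3a KO. The Sox2 promoter (chr3, gene at 34548927 to 34551383, plus strand) was the most deeply covered, with 5 methylated reads of 7604 in wild type, 2 of 2709 in Dnmt3a KO and 0 of 745 in Dnmt TKO, the last of which allows up to 0.403%. Its level was 0.0506% in wild type against 0.0575% in the Dnmt3a KO library, and the difference over 63 shared CpGs was 0.00454 percentage points (95% interval -0.521 to 1.40). No Sox2 CpG exceeded 1.92% in either library, and the interval of the difference includes 0 and leaves room only for a small one. A stretch of each is shown because it holds the unmethylated CpGs against which the methylated stretches further on can be read; both are mm9 sequence on the strand of the gene, and the CpGs with a value in at least 1 library are in capitals. The Pou5f1 stretch, chr17:35643177-35643244, is coding sequence, and the Sox2 stretch, chr3:34548727-34548863, lies upstream of the start.
Pou5f1: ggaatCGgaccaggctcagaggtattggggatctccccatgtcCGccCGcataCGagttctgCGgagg
Sox2: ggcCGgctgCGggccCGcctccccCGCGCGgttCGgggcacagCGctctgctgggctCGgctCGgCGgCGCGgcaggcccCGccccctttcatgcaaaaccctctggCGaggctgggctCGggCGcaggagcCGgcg

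Nanog, whose product joins OCT4 and SOX2 at many of their sites, was seen only upstream of its promoter (chr6, gene at 122657507 to 122664651, plus strand). In wild type, 5 CpGs from position -4625 to -4483 gave 0 methylated reads of 141, which allows up to 2.13%. In Dnmt3a KO, 2 other CpGs at -4974 and -4939 gave 0 of 24, and the single promoter CpG at -1402 gave 1 of 11 reads, or 9.09% (95% interval 1.62 to 37.7). No CpG was shared, and the state of the Nanog start was not measured here.

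Klf4, a zinc-finger factor of naive pluripotency, has the promoter with the highest CpG density of the 10 genes (chr4, gene at 55540013 to 55545347, minus strand). Its level was 0.747% in wild type (95% interval 0.593 to 2.14, 49 of 5275 reads), 0.0524% in Dnmt3a KO (2 of 2047 reads) and 0 of 765 reads in Dnmt TKO. Over 92 shared CpGs the difference between Dnmt3a KO and wild type was -0.785 percentage points (-2.16 to 1.05), an interval that includes 0, and with reads summed over CpGs first it was -0.937 (-1.29 to -0.566), which does not. Of these CpGs, 22 were numerically lower and 1 higher in Dnmt3a KO, and the others were equal. In wild type the highest promoter CpG, at position -1412, had 3 of 12 reads methylated while the other CpGs from -1437 to -1369 had none, and the CpGs at 1726, 1755 and 1786 in the coding sequence had 5 of 87, 6 of 87 and 4 of 77. At these 3 coding sites Dnmt3a KO had 1 of 44, 0 of 41 and 0 of 35, and none of the 3 passed the test of single CpGs given further on. The body beyond position 2000 was also low, at 2.55% in wild type, 2.17% in the Dnmt3a KO library and 0 of 135 reads in Dnmt TKO.

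Tdgf1 encodes Cripto, a cell-surface co-receptor for Nodal, and Zfp42 encodes REX1, a zinc-finger protein used as a marker of the undifferentiated state. Both had low promoters of moderate CpG density. At the Tdgf1 promoter (chr9, gene at 110842114 to 110848662, minus strand), 1 of 368 reads was methylated in wild type, 0 of 218 in Dnmt3a KO and 0 of 86 in Dnmt TKO, and the difference between Dnmt3a KO and wild type over 10 shared CpGs was -0.714 percentage points (-5.68 to 4.38). At the Zfp42 promoter (chr8, gene at 44380422 to 44392363, minus strand), 7 of 659 reads were methylated in wild type, 0 of 83 in Dnmt3a KO and 0 of 102 in Dnmt TKO. The zeros in Dnmt3a KO allow up to 1.38% in Tdgf1 and 3.61% in Zfp42, so that the wild-type levels of 0.446% and 1.39% were not distinguishable from those of the mutant at this depth. The sequences below are the covered part upstream of each start, shown as promoters of low methylation that are not dense CpG islands like those of Sox2 and Klf4. They are chr9:110849067-110849252 and chr8:44392823-44392933 in mm9, written on the minus strand, with measured CpGs in capitals.
Tdgf1: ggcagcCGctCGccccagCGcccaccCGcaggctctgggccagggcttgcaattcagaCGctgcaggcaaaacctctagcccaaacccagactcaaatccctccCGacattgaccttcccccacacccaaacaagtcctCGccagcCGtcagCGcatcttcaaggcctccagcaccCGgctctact
Zfp42: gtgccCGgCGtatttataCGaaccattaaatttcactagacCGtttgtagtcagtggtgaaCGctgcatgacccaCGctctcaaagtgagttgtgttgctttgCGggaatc

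Lin28a, which encodes an RNA-binding protein that blocks maturation of let-7 microRNAs, combined an unmethylated start with methylated CpGs far downstream (chr4, gene at 133559245 to 133574756, minus strand). The promoter had 1 methylated read of 668 in wild type, 0 of 409 in Dnmt3a KO and 1 of 186 in Dnmt TKO. The read in Dnmt TKO, at position 1287, was the only methylated one of 3349 reads over all 10 genes in that library. In the body, wild-type levels were low to intermediate in the first introns and high near the gene end. A CpG at position 3268 had 15.0% (3 of 20 reads), 7 CpGs between 5523 and 6495 had a mean of 8.43% (5.42 to 16.2), the CpG at 12681 in the coding sequence had 73.9% (34 of 46 reads) and 2 CpGs at 15192 and 15196 had a mean of 87.5% (68.0 to 94.4). Dnmt3a KO shared 3 of these CpGs: those at 5523 and 5531 had no methylated read in either library, and the CpG at 12681 had 69.2% (9 of 13 reads), which differs by -4.68 percentage points (-33.5 to 18.3). The body means, 29.4% in wild type and 13.8% in the mutant, are therefore means over different CpGs, and the difference over the shared ones was -1.56 percentage points (-14.3 to 10.0). When reads were summed over the same 3 CpGs first, it was -22.3 percentage points (-36.2 to -5.57), because the methylated CpG held 46 wild-type reads but 13 mutant reads, against 16 to 18 at each of the other CpGs in both libraries.

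Dppa3, which encodes the maternal factor STELLA (chr6, gene at 122576428 to 122580290, plus strand), averaged 11.9% in wild type (8.78 to 18.7, 23 of 199 reads) over 7 CpGs from position 2304 to 2454, of which 5 are coding and 2 intronic. The lowest of them had 0 of 32 reads methylated and the highest 5 of 26. No CpG of Dppa3 passed the coverage limit in either mutant.

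Prdm14, a PR-domain protein that represses differentiation genes and the de novo methyltransferases, held, next to Esrrb, most of the methylated CpGs of the set (chr1, gene at 13103538 to 13117244, minus strand). The promoter had a level of 4.98% in wild type (4.43 to 6.81, 152 of 3909 reads), 0.736% in Dnmt3a KO (0.506 to 3.07, 8 of 1325 reads) and 0 of 684 reads in Dnmt TKO. Over 52 shared CpGs the difference between Dnmt3a KO and wild type was -5.36 percentage points (-7.31 to -2.91), with 38 CpGs numerically lower, 0 higher and the rest equal, although no single promoter CpG passed the test described further on. Among genes with at least 5 shared promoter CpGs, 9.43% had a lower difference than this one. The level was uneven. From position 711 to 807, where the coverage was deepest, the CpGs had at most 1.21% in wild type, while the 5 CpGs from 1870 to 1936 at the downstream edge, in the coding sequence, had 7 of 41, 9 of 41, 9 of 33, 6 of 30 and 10 of 28 reads methylated. In Dnmt3a KO the same CpGs had 0 of 17, 0 of 17, 1 of 15, 0 of 13 and 0 of 11, and each lay below its wild-type value. On average they had 24.4% in wild type against 1.33% in the mutant, which is -23.1 percentage points (-30.5 to -12.0). When only CpGs within 1000 bp of the start were taken as the promoter, the difference was -2.46 percentage points over 27 CpGs (-3.59 to 0.0357). It was -2.94 over 21 CpGs with over 20 reads (-4.18 to -0.555) and -2.57 over 28 CpGs covered in all 3 libraries (-4.64 to 0.0837), so the interval included 0 in the first and last of these alternatives.

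Within the Prdm14 body, a group of 11 CpGs was lower in Dnmt3a KO, while the interval of a second, smaller group included 0. The former, from position 8390 to 8624, averaged 82.9% in wild type against 67.8% in the mutant, or -15.2 percentage points (-22.9 to -8.24), with 10 of 11 numerically lower. The exception, at 8390 and the only coding one, had 11 of 18 reads methylated in wild type and 12 of 13 in Dnmt3a KO. The largest difference was at 8580, with 71.1% (27 of 38 reads) in wild type and 33.3% (6 of 18 reads) in the mutant. At 13177 to 13182, in an untranslated part near the gene end, 3 shared CpGs averaged 75.8% in wild type against 88.2% in the mutant, a difference of 12.5 percentage points (-3.15 to 30.3). Over all 14 shared body CpGs the difference was -9.25 percentage points (-16.2 to -2.60), and 53.4% of gene bodies had a lower one. In the promoter, CpGs away from the edge were lower too. At -1509 to -1334, 10 shared CpGs differed by -4.50 percentage points (-11.5 to 2.32), with 6 lower and 0 higher. The edge of the promoter (chr1:13115299-13115384) and the intronic group (chr1:13108614-13108798) are shown on the minus strand because each of their shared CpGs was lower in Dnmt3a KO. Both stretches were chosen after their values were seen, and the CpGs in capitals are those with a value.
Prdm14 promoter edge: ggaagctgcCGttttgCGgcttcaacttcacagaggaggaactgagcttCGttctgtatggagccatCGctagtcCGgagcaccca
Prdm14 intron: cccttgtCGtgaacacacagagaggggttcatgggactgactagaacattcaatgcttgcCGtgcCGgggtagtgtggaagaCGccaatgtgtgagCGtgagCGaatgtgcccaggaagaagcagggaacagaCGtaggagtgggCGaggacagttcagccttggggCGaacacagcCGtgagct

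**Figure D2:**
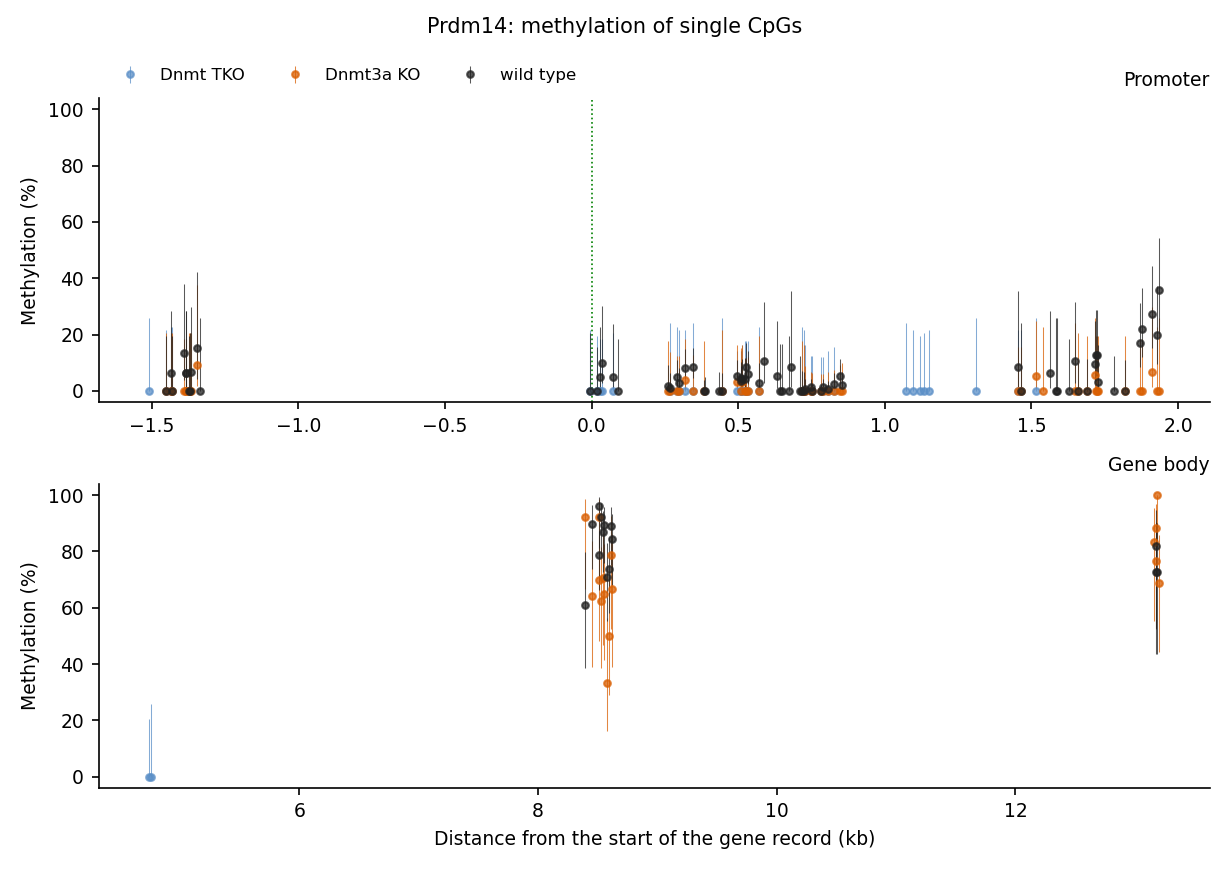
Methylation of single Prdm14 CpGs in percent against distance from the gene start in kb, in the promoter (top) and body (bottom), with Wilson 95% intervals and the start as a dotted line. In wild type (black) levels stay low over most of the promoter and reach 35.7% at its downstream edge, where Dnmt3a KO (orange) has at most 6.67%; the group near 8.5 kb is methylated in both libraries.

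Esrrb, an orphan nuclear receptor that sustains self-renewal, was the gene with the most methylation around its annotated start (chr12, gene at 87702067 to 87862578, plus strand). The 7 promoter CpGs, from position -567 to -106, averaged 60.6% in wild type (52.3 to 67.7, 73 of 118 reads), and 95.03% of promoters with at least 5 CpGs had a lower level. The 3 that were also covered in Dnmt3a KO, at -186, -176 and -155, had 12 of 20, 12 of 20 and 13 of 17 reads methylated in wild type and 4 of 11, 3 of 11 and 3 of 11 in Dnmt3a KO. All were lower in the mutant, on average 65.5% against 30.3%, with a difference of -35.2 percentage points (-49.8 to -14.1). With 3 shared CpGs, the promoter was under the 5 required for the count over genes below. Farther upstream, at -2176 to -2138, 3 shared CpGs had 3 of 20, 4 of 20 and 8 of 20 reads methylated in wild type and 1 of 15, 3 of 15 and 6 of 16 in Dnmt3a KO, on average a difference of -3.61 percentage points (-18.2 to 12.4).

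This start is used by 1 of the annotated Esrrb transcripts, Esrrb-001. Other protein-coding transcripts begin at positions 60527, 60766 and 109000, and around the first pair of these the DNA had little methylation. Within 2000 bp of position 60527, 72 CpGs averaged 4.15% in wild type (3.63 to 5.61) and 68 CpGs 0.861% in the mutant (0.60 to 2.86). The CpGs from 60543 to 60823, which lie in exon sequence of these transcripts, had at most 5.68% in wild type. The level was higher towards the downstream end, with 7 of 32 reads at 61964 and 7 of 17 at 62113, the latter covered in wild type only. Over 62 shared CpGs the difference between Dnmt3a KO and wild type was -1.99 percentage points (-3.30 to 0.0661). When CpGs near any protein-coding transcript start counted as promoter, the Esrrb promoter had 9.34% in wild type and 2.10% in the mutant, so that 8 of 8 promoters with at least 5 CpGs lay under 10% in wild type in place of 7 of 8. Dppa3 then gained 3 promoter CpGs in wild type, within 2000 bp of a start at position 343, with 13.8% (11 of 75 reads), which is under that number of CpGs.

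Along the Esrrb body, groups of CpGs ranged from unmethylated to nearly fully methylated, and several of them were lower in the Dnmt3a KO library. Taken as a whole, the body differed by -5.39 percentage points (-7.03 to -3.46) over 90 shared CpGs. This was a smaller decrease than in most genes, as 69.8% of gene bodies lay below it. Without the CpGs near any protein-coding transcript start, the Esrrb body differed by -12.9 percentage points over 28 CpGs (-17.3 to -8.72). An intronic group at 41639 to 42001 had 1.47% over 10 wild-type CpGs and 1.30% over 14 in the mutant. Groups covered almost only in wild type, at 16200 to 16226 and 27726 to 27840, had 82.1% over 3 CpGs and 67.4% over 7. Of the highly methylated groups, that at 45998 to 46119 averaged 89.9% in wild type against 71.9% in the mutant over 3 shared CpGs, or -17.9 percentage points (-31.9 to -6.21). That at 29391 to 29531 averaged 86.8% against 73.9% over 2 CpGs (difference -12.9, interval -31.0 to 0.192), and that at 90913 to 91060 averaged 78.8% against 85.1% over 2 (difference 6.36, interval -13.9 to 20.5). Only the first of these intervals lies wholly below 0. In the downstream part of the gene, 3 intronic stretches had intermediate levels in wild type. At 129665, 129698 and 129728, wild type had 25 of 68, 36 of 73 and 31 of 73 reads methylated and Dnmt3a KO 0 of 18, 2 of 21 and 4 of 20, a difference of -33.0 percentage points (-41.1 to -20.1). At 146781 and 146857, wild type had 19 of 51 and 7 of 37 and Dnmt3a KO 0 of 22 and 0 of 17, a difference of -28.1 percentage points (-38.4 to -14.0). The third stretch is part of a longer group, from 156721 to 158579, in which 7 shared CpGs averaged 49.2% in wild type against 31.9% in the mutant, or -17.3 percentage points (-27.3 to -6.53), with 5 lower and 1 higher. Its 4 intronic CpGs were set apart after their values were seen. At 156769, 156800, 156803 and 156817, wild type had 3 of 12, 9 of 19, 7 of 20 and 14 of 22 and Dnmt3a KO 1 of 17, 4 of 23, 4 of 23 and 2 of 22, a difference of -30.3 percentage points (-42.2 to -16.7). Each of these 9 CpGs was lower in Dnmt3a KO. In untranslated sequence of the same group, of the other 3 shared CpGs 1 was lower, 1 equal and 1 higher: at 158405, 158423 and 158537 wild type had 8 of 16, 8 of 16 and 11 of 15 reads methylated and Dnmt3a KO 5 of 16, 8 of 16 and 12 of 13.

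The Esrrb stretches that carry these results are shown on the plus strand, with measured CpGs in capitals: the methylated annotated promoter (chr12:87701872-87701970), an intronic stretch without a methylated read in any library, and the 3 intermediate intronic stretches, in which the CpGs named above lie. The intronic stretches were chosen after their values were seen.
Esrrb promoter: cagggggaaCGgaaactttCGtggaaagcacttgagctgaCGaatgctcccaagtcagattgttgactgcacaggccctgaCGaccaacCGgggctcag
Esrrb intron, chr12:87743827-87743907: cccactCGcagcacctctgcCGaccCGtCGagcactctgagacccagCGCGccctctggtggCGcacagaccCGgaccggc
Esrrb intron, chr12:87831682-87831847: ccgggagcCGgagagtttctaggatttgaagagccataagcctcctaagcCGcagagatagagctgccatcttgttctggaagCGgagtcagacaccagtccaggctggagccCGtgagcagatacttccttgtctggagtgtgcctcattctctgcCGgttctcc
Esrrb intron, chr12:87848840-87848932: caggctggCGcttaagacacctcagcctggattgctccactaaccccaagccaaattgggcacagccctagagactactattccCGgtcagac
Esrrb intron, chr12:87858828-87858892: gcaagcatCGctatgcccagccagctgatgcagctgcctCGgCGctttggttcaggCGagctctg

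**Figure D3:**
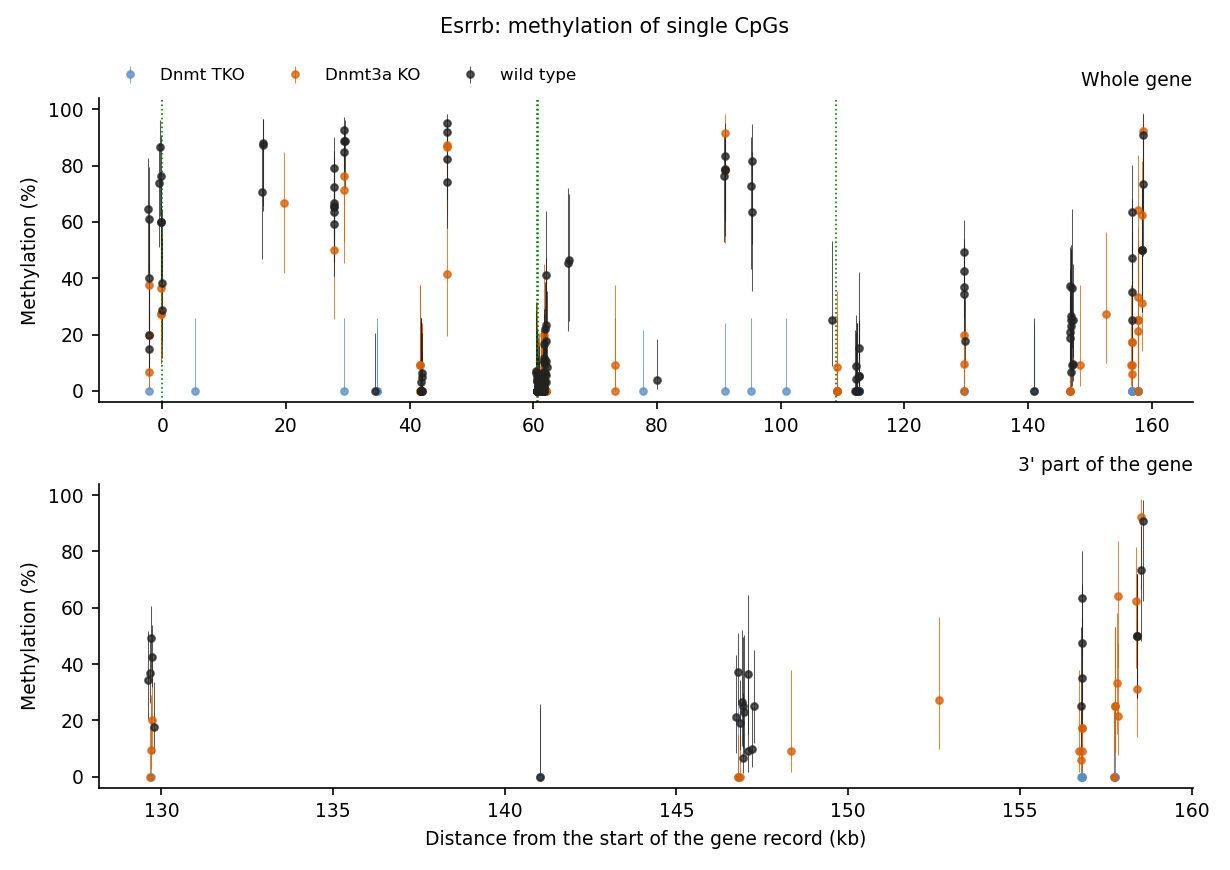
Methylation of single Esrrb CpGs in percent against distance from the start of the gene record in kb, over the whole gene (top) and its 3' part (bottom), with Wilson 95% intervals and protein-coding transcript starts as dotted lines. The dense group at the start at position 60527 averages 4.15% in wild type (black), with single CpGs up to 41.2%, and 0.861% in Dnmt3a KO (orange). The 3 stretches beyond 129 kb with intermediate levels in wild type lie lower in Dnmt3a KO.

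To compare single CpGs between libraries, Fisher's exact test (two-sided) was run on methylated and unmethylated reads of all 631561 CpGs covered in wild type and Dnmt3a KO, with Benjamini-Hochberg adjustment, and a CpG was called at q under 0.05 and a difference of at least 20 percentage points. With 1 library each, the test compares these libraries and not the genotypes. Of 368 shared CpGs in the 10 genes, 2 were called lower in Dnmt3a KO, or 0.543%, beside 1.64% of all CpGs tested. Both are the Esrrb intronic CpGs at 146781 (chr12, 87848848; 37.3% against 0%, q = 0.0282) and 156817 (chr12, 87858884; 63.6% against 9.09%, q = 0.0286). None was called higher, beside 0.0304% of all CpGs. At an unadjusted p under 0.05 there were 11 lower and 0 higher, and the share of all CpGs at that limit is not given here. The calls over the whole map leaned the same way, with 10333 CpGs lower and 192 higher. A CpG can be called lower only if it had at least 20% in wild type. Of the 44 member CpGs with that level, 2 (4.55%) were called, beside 6.59% of all such CpGs, so the share among the pluripotency genes was near the background. In numbers alone, 145 of the 368 CpGs were lower in Dnmt3a KO, 21 higher and 202 equal, of which 200 had no methylated read in either library. At very low levels these counts also depend on depth, as the deeper wild-type library was more likely to hold a rare methylated read. The lower member CpGs lay mainly in Esrrb (58 of 96), Prdm14 (49 of 66) and Klf4 (29 of 111). For the whole map, the share of numerically lower CpGs is given by level over the reads of both libraries together. It was 16.2% of CpGs under 10%, 88.0% of those with 10 to 50% and 77.0% of those with at least 50%. Of the member CpGs, 21 of 23 with 10 to 50% were lower and 1 higher, and 21 of 27 with at least 50% were lower and 5 higher. At levels of 10% and above, a lean towards lower values was thus not particular to the pluripotency genes. Under 10%, the share of lower CpGs was larger among the members than in the map, so the same cannot be said there.

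**Figure D4:**
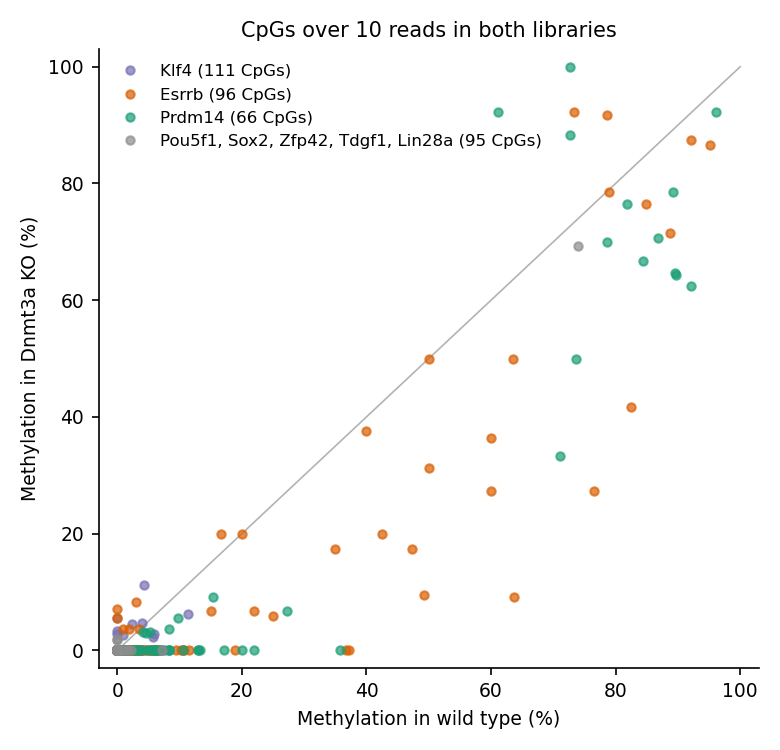
Methylation of the 368 shared CpGs of the pluripotency genes in wild type (horizontal axis) against Dnmt3a KO (vertical axis), in percent, with equality as a line. Most points lie at 0 in both, and of the Esrrb (orange) and Prdm14 (green) CpGs with at least 20% in wild type most lie below the line.

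By region, no member promoter with at least 5 shared CpGs (0 of 5) was lower in Dnmt3a KO by at least 10 percentage points, beside 5.42% of 12376 promoters of all genes. The highest wild-type level over shared CpGs among these 5 was 6.03%, in Prdm14. None of them could therefore fall by 10 percentage points, and the count says nothing about the members. No member gene body (0 of 3) passed the same limit, beside 50.6% of 6509 gene bodies. The Klf4 body, at 2.68% in wild type over shared CpGs, could not have passed it. The median difference was -0.714 percentage points over the 5 member promoters and -0.103 over all promoters, and -5.39 percentage points over the 3 member bodies and -10.2 over all bodies. The body counts rest on Klf4, Esrrb and Prdm14 alone. Of bodies with at least 5 CpGs, 2 of 6 members were under 10% in wild type and 1 of 4 in Dnmt3a KO, beside 8.83% and 16.2% of all bodies. Member CpGs with a level of at least 10% were lower in Dnmt3a KO by amounts near those of other CpGs of like level. Among CpGs with 10 to 50% over the reads of both libraries together, 23 member CpGs averaged 31.7% in wild type against 10.9% in the mutant, or -20.8 percentage points (-25.0 to -15.3), and 51090 CpGs of the whole map had a difference of -19.2. Among those with at least 50%, 27 member CpGs differed by -9.94 percentage points (-15.0 to -5.11) and 116146 CpGs of the whole map by -13.7. Both groups of members came almost wholly from Esrrb and Prdm14: 16 and 6 of the 23, and 12 and 14 of the 27. Most shared member CpGs, 318 of 368, were under 10%, and there the members differed on average more than the map. Their difference was -1.14 percentage points (-1.79 to -0.263), against -0.446 over 464325 CpGs. Their wild-type mean was also higher, at 1.44% against 0.741%. This was uneven over the genes. The difference was -3.42 (-5.38 to -1.01) over 46 CpGs in Prdm14 and -1.71 (-3.17 to 0.218) over 68 in Esrrb. It was -0.699 (-1.94 to 0.928) over 110 in Klf4 and -0.125 (-3.20 to 4.26) over 10 in Lin28a. Of these intervals, only that of Prdm14 lies wholly below 0.

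The Dnmt TKO library gave the background of the measurement. Over the 10 genes it held 1 methylated read of 3349, or 0.0299% (Wilson 95% interval 0.00527 to 0.169), against 1836 of 26959 in wild type and 420 of 10362 in the Dnmt3a KO library. Averaged over the CpGs of the 10 genes, levels were 10.5%, 6.52% and 0.0264% in wild type, Dnmt3a KO and Dnmt TKO, and over all CpGs 28.4%, 17.0% and 0.0911%. Each of these means is over the CpGs covered in that library, which differ between libraries. In Esrrb, for example, levels were 24.6% in wild type and 11.4% in Dnmt3a KO, but 17.2% and 10.9% over the 96 shared CpGs. Of 192 member CpGs covered in wild type and Dnmt TKO, 6 were called lower in Dnmt TKO (3.13%), beside 19.4% of all CpGs tested, and none was called higher. At an unadjusted p under 0.05 there were 8 lower and 0 higher, and the share of all CpGs at that limit is not given here. Only 10 of the 192 had at least 20% in wild type. The 6 are in the Esrrb body, at 29407, 90973, 129698, 156800, 156803 and 156817, with 62 of 73, 30 of 38, 36 of 73, 9 of 19, 7 of 20 and 14 of 22 reads methylated in wild type and none of the 11 to 19 reads in Dnmt TKO. Over 28 shared Esrrb body CpGs the difference between Dnmt TKO and wild type was -16.1 percentage points (-19.3 to -11.8). It was -0.604 (-2.47 to 5.81) over the 5 CpGs with over 20 reads in both, and -25.7 (-30.9 to -19.4) over the 17 CpGs left when those near any protein-coding transcript start were taken out. The promoters of Sox2, Klf4, Zfp42, Tdgf1, Prdm14 and Lin28a, which were already low in wild type, differed from Dnmt TKO by -3.18 to 0.926 percentage points, and each of these intervals includes 0. With reads summed over CpGs first, the intervals of Prdm14 (-2.87, interval -3.57 to -1.997) and Klf4 (-1.43, interval -1.94 to -0.795) lay below 0. In these promoters 23 and 18 CpGs were numerically lower in Dnmt TKO. None could be higher, as Dnmt TKO had no methylated read there, so the direction of these counts carries no weight. Wild type was also read more deeply, with a median of 72 reads against 16 in Prdm14 and 58 against 12 in Klf4.

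The CpG density of the 10 promoters ranged from 1.57 CpGs per 100 bp in Nanog to 7.17 in Klf4, where the median of all genes was 2.13 and 37.0% of promoters were less dense than that of Nanog. Pou5f1 (1.95), Dppa3 (1.97) and Esrrb (1.77) also lay under that median. Of all promoters with under 2 CpGs per 100 bp, 67.4% had no CpG over 10 reads in wild type, as was the case for Nanog and Dppa3. Those with at least 5 CpGs had a median level of 8.65%, and 51.2% of them were under 10%. Within this class Pou5f1 lay at the unmethylated end and Esrrb, at its annotated start, at the methylated end. Between 2 and 4 CpGs per 100 bp, 88.8% of promoters were under 10%, and so were Zfp42, Tdgf1, Lin28a and Prdm14. At 4 or more, 96.8% were, together with Sox2 and Klf4. Low promoter levels were thus not particular to the pluripotency genes.

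**Figure D5:**
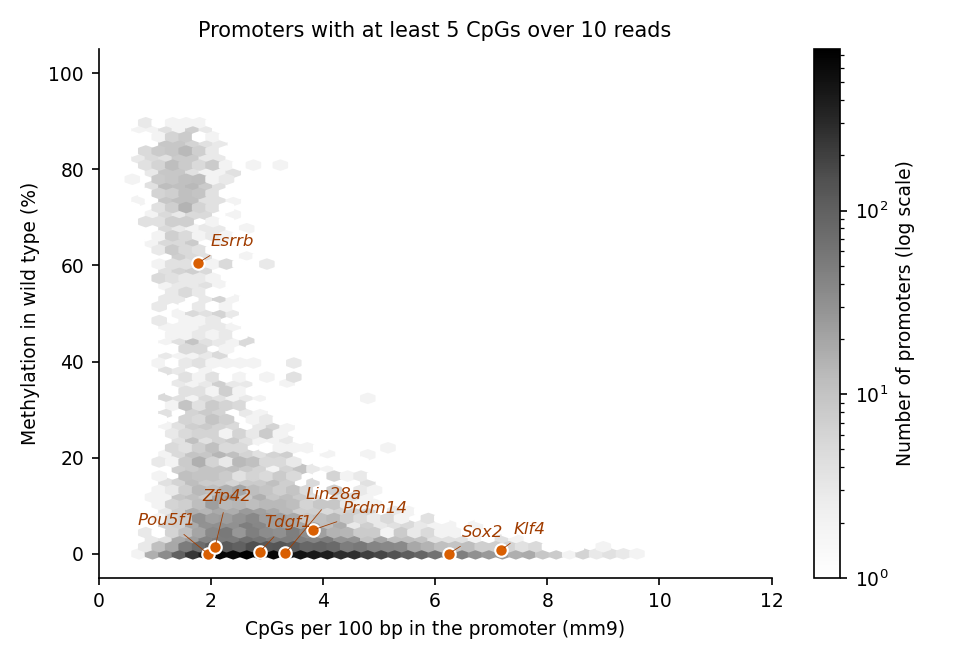
Wild-type methylation in percent against CpGs per 100 bp for all promoters with at least 5 CpGs over 10 reads, as counts on a log grey scale, with the 8 measured pluripotency genes in orange. Members follow the low band of the other promoters except Esrrb, which lies at 60.6% among promoters of low density.

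Other genes of the pluripotency network likewise had low promoters and more methylated bodies, as most genes of the map did. Of 28 further genes linked to naive pluripotency or its signals, 22 had at least 5 promoter CpGs in wild type and all 22 were under 10%, with a median of 0.107%, beside 83.9% of all promoters. None of the 20 with at least 5 shared CpGs was lower in Dnmt3a KO by 10 percentage points or more, beside 5.42% of all promoters. None of them could be, as the highest wild-type level over their shared CpGs was 6.92%. The median difference was -0.0550. The largest differences were in Gbx2 (6.92% in wild type against 1.61%, difference -5.31, interval -7.64 to -2.30), a homeobox factor, Tbx3 (-1.58, interval -3.24 to 0.993), a T-box factor, and Klf2 (-0.574, interval -1.70 to 0.905), a relative of Klf4. In the bodies, 3 of 11 passed that limit, beside the 50.6% of all bodies given above: Tcf7l1, a repressor in the Wnt pathway, with 48.2% in wild type and 33.7% in Dnmt3a KO (difference -14.5, interval -17.9 to -10.7), Sall4, a zinc-finger factor, with 34.8% and 20.9% (-13.9, interval -16.4 to -11.0), and Lifr, the receptor for LIF, with 75.6% and 64.7% (-10.8, interval -18.0 to -5.01). Of 8 genes of the primed state, 7 had measured promoters and all 7 were under 10%, and the largest differences were -1.54 percentage points in Fgf5, -1.20 in Otx2 and -0.60 in Sox3, each with an interval that includes 0. Among their bodies, 1 of 3 passed the limit, with the same background: Lef1, a Wnt effector, had 65.9% in wild type and 47.8% in Dnmt3a KO (-18.1, interval -23.0 to -12.7), beside Zic2 (-2.02) and Otx2 (-0.299).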

How the data were processed

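RRBS was measured in ES cells of 3 genotypes, 1 library each, grouped by the genotype in the labels. Per the labels and the study's methods, MspI-digested DNA was excised at 150 to 250 and 250 to 350 bp, converted with bisulfite and amplified with 10 PCR cycles. The submitters' processing notes name Trim Galore and Bowtie, and the authors aligned reads to mm9 with QuasR and removed CpGs at known variants. The versions are not given in the sources used here, nor is how the libraries of both insert sizes were joined. The authors deposited, for each CpG with at least 10 reads, read counts (all reads and methylated reads) and a fraction, the methylation score, which was not used. CpGs over 10 reads were kept here, where the study's methods ask for over 20, which would leave few in Dnmt TKO (this is an alternative below). Genes and transcripts are those of GENCODE vM1, and sequences and CpG positions come from the NCBIM37 (mm9) genome. Over the 3 libraries, 970329, 814188 and 431923 CpGs had a median of 31, 18 and 13 reads, which sets the width of each interval, and single CpGs at 11 reads have wide ones. Fisher's exact test was run on all shared CpGs with Benjamini-Hochberg adjustment, and checked on simulated data. Groups of CpGs along a gene are split at gaps over 1000 bp. All 10 members were to be named, with each called CpG and, of the further lists, the 3 genes with the largest difference in promoters and bodies among those with at least 5 shared CpGs. One listed gene was matched by an older symbol. The members and lists were chosen with earlier results of these data known. Python 3.11.15, NumPy 2.4.6, pandas 2.3.3, SciPy 1.17.1, numba 0.67.0, pysam 0.24.0, matplotlib 3.10.9 and samtools 1.23.1 were used.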

Additional observations from a re-analysis of the deposited data

How the results depend on the processing

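With 1 library per genotype no library could be left out, and no paired analysis was possible because the labels carry no replicate numbers. The number of member promoters under 10% and that of promoters lower by at least 10 percentage points stayed within 1.5 times their values under each alternative that gave one. With coverage over 20 reads, the calls between wild type and Dnmt3a KO numbered 3, the additional one being the Esrrb CpG at position 129698 (q = 0.0385), and those between wild type and Dnmt TKO 0, since few CpGs are left in Dnmt TKO; the body of 1 of 4 genes in wild type and 2 of 2 in Dnmt3a KO was under 10%, in place of 2 of 6 and 1 of 4, and the Esrrb promoter had no CpG left. At q under 0.01 the calls in Dnmt3a KO were 0. With pooled reads, 2 of 4 bodies in Dnmt3a KO were under 10% and 1 of 3 was lower by at least 10 percentage points. With promoters within 1000 bp, 4 of 8 bodies in wild type and 3 of 5 in Dnmt3a KO were under 10%, and 1 of 5 was lower. With the starts of all protein-coding transcripts, 0 of 3 and 0 of 3 were under 10%, and 1 of 2 was lower. Over CpGs shared by all 3 libraries, 1 of 2 and 2 of 2 were under 10%. These settings change which CpGs and how many are counted. Of 358 levels and differences of single regions recomputed under 9 alternatives, 317 stayed within their interval and 41 moved outside it. Of the differences whose interval excluded 0, 0 changed sign; that of the Sox2 promoter, whose interval includes 0, was -0.0334 with promoters within 1000 bp in place of 0.00454. Leaving out CpGs in other protein-coding genes, or within 2000 bp of their starts, changed nothing, since no member CpG lies there. Noncoding genes were not checked.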
